A study of Homo sapiens with 4 samples.

Results

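In OCI-AML3 cells in which the mutant NPM1 gene was edited, 14 genes went from almost no reads to a clear signal and 7 genes went the other way. These are the genes switched on or off with the knockout, out of 58037 genes in the count table. A gene was taken as on when its raw read count was at most 15 in both control libraries and at least 60 in both knockout libraries, and as off when the reverse was true. HOX genes, the long non-coding RNAs HOTTIP and HOTAIRM1, and the genes TFEC and PRLR were left out by name. Of these, 2 (TFEC and PRLR) met the counts for an on gene and 0 met those for an off gene. Since the counts themselves chose the genes, the difference between the conditions is given for them as a description and carries no test.

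OCI-AML3 is an established human acute myeloid leukemia line. According to the study, it carries heterozygous mutations of NPM1 and DNMT3A and a homozygous NRAS mutation, which both conditions share. Cells were transfected with a non-targeting guide RNA, sgNeg (sgRNA Ctrl in the study, 2 libraries), or with sgNPM1A, a guide designed against the mutant NPM1 allele (2 libraries), and RNA-Seq was done 3 days (72 h) later. The libraries came from transfected pools of cells, not from clones. The gene counts add up both NPM1 alleles, so edited and unedited copies cannot be told apart in them.

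Nucleophosmin, the product of NPM1, is an abundant nucleolar chaperone, and its leukemic mutant moves to the cytoplasm and keeps HOX genes and MEIS1 expressed in immature myeloid cells. When such cells lose the mutant protein or are treated to mature, they take up features of monocytes and granulocytes, among them receptors for chemoattractants and inflammatory lipids. A gene that passes from near 0 to a clear count, or back, is of interest because it can mark a state that the control cells hardly show. In bulk RNA the same shift can come from many cells with few transcripts or from few cells with many, and these cannot be told apart here.

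Total counts lay between 25069484 and 28276391 per library, so that 1 read corresponded to between 0.0359 and 0.0393 CPM (read counts scaled to library size, with TMM factors), and mitochondrial genes took from 8.37% to 8.63% of the reads. The NPM1 gene had 33522 and 35881 reads in the sgNeg libraries and 33154 and 31428 in the sgNPM1A libraries. Its level was 1350 ± 47.1 CPM with sgNeg and 1160 ± 40.7 CPM with sgNPM1A (mean ± SD, n = 2 libraries each, as throughout). The log2 fold change of NPM1 was -0.22 (SE 0.07, adjusted p = 0.036, edgeR quasi-likelihood test with Benjamini-Hochberg adjustment), which is smaller than the 0.32 on the log2 scale (the study's fold limit) that a call required. Mutant and normal transcripts are summed in this value, so it does not measure the editing. The labels give library numbers 1 and 2 within a condition and name no separate cultures, whereas the study calls them biological replicates. If they are not separate cultures, the p-values measure technical spread only.

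Promoter sequences are shown for 6 of the genes. FGF18 has the largest difference of the on genes and a promoter dense in CpG, FPR1 and FPR2 are an adjacent pair with few CpG, PLB1 and RAB27B hold the letters of a MEIS recognition word, and GZMA is the off gene with the widest gap. Each is the 250 bases before the RefSeq gene start on GRCh38.p14, written 5′ to 3′ on the strand of the gene. Capitals mark an exact match, on either strand, to one of the words searched. The MEIS word was TGACAG. TGATTTAT stood for HOX9-PBX sites, GAGGAAGT for SPI1, TGANTCA for AP-1 and TGTGGT for RUNX. The last word was that of the core promoter element, TATAAA. None of the marked matches overlap. The windows lie at chr5:171419397-171419646 (forward strand, FGF18), chr19:51751879-51752128 (reverse strand, FPR1), chr19:51760930-51761179 (forward strand, FPR2), chr2:28495810-28496059 (forward strand, PLB1), chr5:55102396-55102645 (forward strand, GZMA) and chr18:54717607-54717856 (forward strand, RAB27B).
FGF18: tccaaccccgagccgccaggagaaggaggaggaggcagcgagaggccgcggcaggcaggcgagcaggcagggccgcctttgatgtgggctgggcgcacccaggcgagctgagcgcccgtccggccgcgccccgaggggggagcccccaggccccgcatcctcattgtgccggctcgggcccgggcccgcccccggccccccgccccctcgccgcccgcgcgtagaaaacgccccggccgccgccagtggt
FPR1: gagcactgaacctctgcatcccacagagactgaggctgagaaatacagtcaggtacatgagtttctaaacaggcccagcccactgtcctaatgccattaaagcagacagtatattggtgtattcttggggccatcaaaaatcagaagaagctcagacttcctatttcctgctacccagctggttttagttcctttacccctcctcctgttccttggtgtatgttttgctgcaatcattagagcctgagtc
FPR2: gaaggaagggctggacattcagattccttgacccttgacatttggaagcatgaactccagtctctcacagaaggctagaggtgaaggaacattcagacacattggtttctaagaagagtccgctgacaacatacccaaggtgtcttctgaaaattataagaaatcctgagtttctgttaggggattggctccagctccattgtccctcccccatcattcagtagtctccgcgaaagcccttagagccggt
PLB1: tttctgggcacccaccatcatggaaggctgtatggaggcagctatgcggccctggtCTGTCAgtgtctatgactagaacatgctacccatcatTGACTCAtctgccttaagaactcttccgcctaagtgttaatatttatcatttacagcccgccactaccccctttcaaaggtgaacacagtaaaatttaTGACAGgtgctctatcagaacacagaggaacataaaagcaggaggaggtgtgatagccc
GZMA: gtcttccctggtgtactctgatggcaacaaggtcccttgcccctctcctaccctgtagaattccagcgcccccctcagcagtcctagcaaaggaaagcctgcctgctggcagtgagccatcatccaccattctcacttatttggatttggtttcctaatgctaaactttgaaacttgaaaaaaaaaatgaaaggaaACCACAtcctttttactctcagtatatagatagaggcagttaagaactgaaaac
RAB27B: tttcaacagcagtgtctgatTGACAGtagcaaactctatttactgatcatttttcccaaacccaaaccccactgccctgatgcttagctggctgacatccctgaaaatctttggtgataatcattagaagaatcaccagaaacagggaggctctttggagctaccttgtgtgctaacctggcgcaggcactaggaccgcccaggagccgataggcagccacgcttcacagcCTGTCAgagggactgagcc

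In PLB1 the capitals are a MEIS word on the reverse strand (CTGTCA), an AP-1 word and a MEIS word on the forward strand. In RAB27B they are a MEIS word on each strand, and in GZMA a RUNX word on the reverse strand (ACCACA). Among the 12 on genes with a promoter in the RefSeq table, the MEIS word was found in 1, the AP-1 word in 1 (both in PLB1), and the RUNX word in 1 (CLEC12A). Among the 6 off genes with a promoter, the MEIS word was found in 1 (RAB27B) and the RUNX word in 1 (GZMA). Over all 35116 promoters of the same length, 13% held the MEIS word, 6.57% the AP-1 word, 11.0% the RUNX word, 10.7% the TATA word, 2.17% the SPI1 word and 0.752% the HOX9-PBX word. The last 3 were found in 0 of the 12 on and 0 of the 6 off promoters. A match is a run of letters, not a shown binding site.

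The promoters of the on genes differed widely in CpG content. FGF18 and CCNA1 had 31 CpG sites in 250 bases, PTGER2 and PRRG4 had 28, while PLB1 had 3, FPR2 had 4, and FPR1 and CLEC12A had 0. Their median was 23 (range 0 to 31, n = 12), and 8 of the 12 had 10 or more. Over all promoters the median was 11, and 52.2% had 10 or more. In the 6 off promoters the median was 7 (range 1 to 43, the highest in ENTREP2), with 10 or more in 3 of them. The windows of ENTREP2, CLEC12A, CCNA1 and TSHZ3 belong to a start inside the gene, and that of PRRG4 lies partly inside. In these windows the receptors FPR1, FPR2 and CLEC12A were thus on the CpG-poor side of the on genes. The ligand FGF18, the receptor PTGER2 and the cyclin CCNA1 were on the CpG-rich side.

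The on genes form a mixed group of a secreted growth factor, cell surface receptors, a channel, vesicle and membrane proteins, enzymes, a cyclin, a transcription factor and a long non-coding RNA. FGF18 encodes a secreted fibroblast growth factor known for its part in bone and cartilage growth. It had 1 and 1 read in the sgNeg libraries and 367 and 332 in the sgNPM1A libraries, from 0.039 to 12.6 ± 0.855 CPM. The ratio of its normalized counts was 322, with a 95% interval of 88.9 to 2670 that covers counting error only. No other on or off gene had so low a count on the low side together with so high a count on the high side. FGF18 (chr5:171419647-171457626) lies 8747 bases beyond the end of NPM1, the gene that the guide targets.

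Of the receptors, PTGER2 showed the highest level per kilobase of exon with sgNPM1A (4.33 CPM per kb, against 1.02 for FPR1 and CLEC12A and 0.769 for FPR2). It encodes the prostaglandin E2 receptor EP2, which raises cyclic AMP in leukocytes, and lies at chr14:52314312-52328598. PTGER2 had 15 and 8 reads with sgNeg and 268 and 326 with sgNPM1A, from 0.449 ± 0.199 to 10.7 ± 1.5 CPM (log2 fold change 4.56, SE 0.25). The lowest knockout library was 16.3 times the highest control library in CPM.

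FPR1 and FPR2 encode formyl peptide receptors, by which neutrophils and monocytes sense bacterial and mitochondrial peptides. By RefSeq the genes lie next to each other in opposite orientation, FPR1 at chr19:51745172-51751878 and FPR2 at chr19:51761180-51770531. The annotation used for exon lengths lets them overlap on opposite strands, so their reads may be mixed if the counting ignored strand. FPR1 had 5 and 6 reads with sgNeg and 64 and 83 with sgNPM1A (0.214 ± 0.0247 to 2.64 ± 0.490 CPM, log2 fold change 3.60, SE 0.35). For FPR2 the counts were 3 and 3 against 71 and 84, a ratio of 23.8 with a 95% counting interval of 10.7 to 65.9. Both were low in both controls and just above the limit of 60 in both knockouts. The related FPR3 (chr19:51795157-51826190), which lies in the same cluster, had 0 and 1 read with sgNeg and 0 and 0 with sgNPM1A, which is under the floor of 3 reads, and no fold is given.

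CLEC12A is an inhibitory C-type lectin receptor of myeloid cells that is used as a surface marker in acute myeloid leukemia. It had 4 and 5 reads with sgNeg and 95 and 89 with sgNPM1A (0.175 ± 0.0252 to 3.31 ± 0.143 CPM, log2 fold change 4.20, SE 0.32). KCNK13, which encodes the THIK-1 potassium channel, had 12 reads in each sgNeg library and 81 and 89 in the sgNPM1A libraries. Its log2 fold change of 2.70 (SE 0.27) was the smallest of the on genes. PRRG4, a membrane protein with a vitamin K-dependent Gla domain, had 14 and 11 reads against 98 and 90 (2.78, SE 0.26).

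SYTL1 encodes synaptotagmin-like protein 1, an effector that binds RAB27 on vesicles before they fuse with the plasma membrane. It had 5 and 1 reads with sgNeg and 125 and 106 with sgNPM1A, a ratio of 35.5 with a 95% counting interval of 16.1 to 97.8. The controls differed from each other, and the log2 fold change of 5.09 was 6.59 without sgNeg replicate 1 and 4.37 without sgNeg replicate 2. PLB1, a membrane-bound phospholipase B, had 11 and 8 reads against 72 and 96 (log2 fold change 3.01, SE 0.31). LRRK2, a kinase of RAB GTPases known from familial Parkinson's disease, had 14 and 7 reads against 75 and 96 (2.89, SE 0.32). Its value was 3.48 without sgNeg replicate 1 and 2.47 without sgNeg replicate 2. In these genes too the conditions did not overlap, as the rule required, and LRRK2 had the narrowest gap of the on genes, its lower knockout library lying at 4.88 times its higher control library.

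CCNA1 encodes cyclin A1, a cyclin of germ cells and of myeloid leukemia cells. It had 10 and 6 reads with sgNeg and 136 and 167 with sgNPM1A (0.313 ± 0.114 to 5.45 ± 0.803 CPM, log2 fold change 4.11, SE 0.29). CALB2 encodes calretinin, a calcium-binding protein best known from neurons and mesothelium, and had 10 and 7 reads against 284 and 255 (0.332 ± 0.0871 to 9.69 ± 0.711 CPM, 4.85, SE 0.24). TSHZ3, a teashirt zinc finger transcription factor, had 15 reads in each control library and 288 and 331 in the knockout libraries (0.585 ± 0.00773 to 11.1 ± 1.12 CPM, 4.24, SE 0.21). FGF18, TSHZ3, PTGER2 and CALB2 had 255 reads or more in both sgNPM1A libraries, and the other 10 on genes 167 or fewer. ENSG00000260188, the only long non-coding RNA among the on genes, had 4 and 8 reads against 83 and 80 (3.62, SE 0.33). In the reference annotation it lies 1266 bases from SLC22A16, a carnitine transporter gene on the opposite strand, which had 59 and 57 reads against 168 and 176 and was called higher (log2 fold change 1.45, SE 0.17, adjusted p = 8.2e-05, edgeR).

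**Figure D1:**
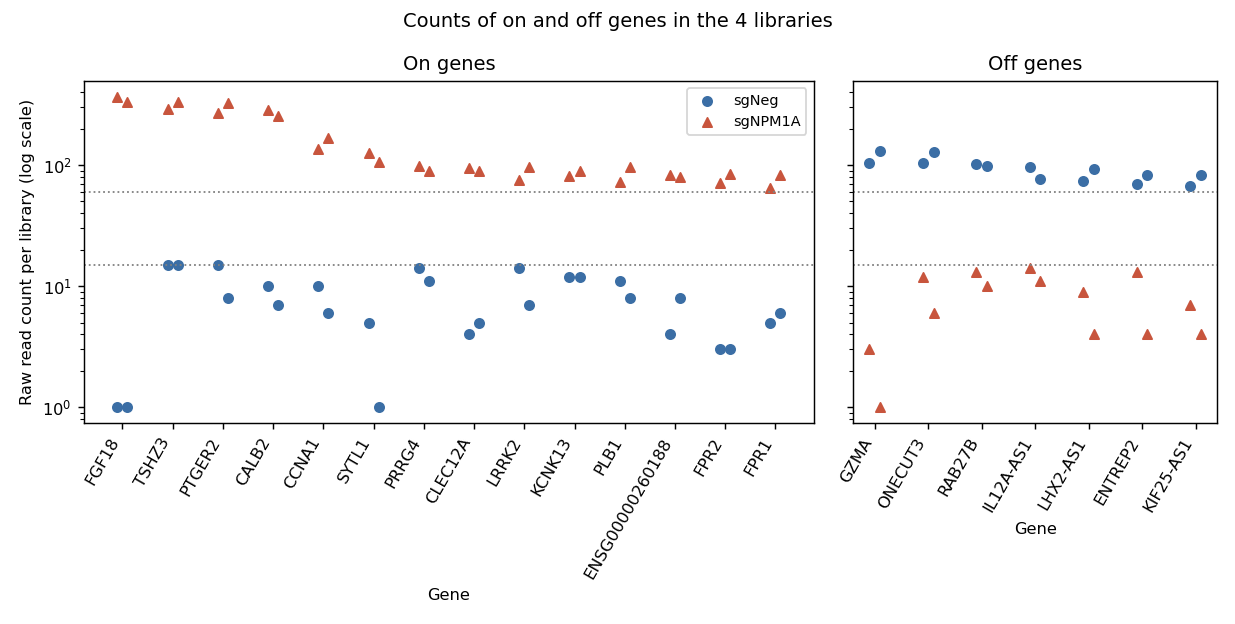
Raw read counts on a log axis for each on gene (left) and off gene (right), with circles for the 2 sgNeg and triangles for the 2 sgNPM1A libraries; the dotted lines are the limits of 15 and 60 reads that chose the genes. FGF18 spans from 1 read to 367, and most other on genes from between 3 and 15 reads to between 64 and 331.

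All 14 on genes passed the filter on low counts and all 14 were called higher by edgeR, beside 10.5% of the 15718 genes tested. All 7 off genes passed it as well and all 7 were called lower, beside 10.3% of the genes tested. As the counts of the same comparison chose the genes, nothing is read from these calls. The log2 fold changes of the on genes ran from 2.70 to 8.17 with a median of 4.16, and those of the off genes from -5.90 to -2.90 with a median of -3.77. Over all genes tested the median was 0.00, and 1% of the genes lay below -1.95 and 1% above 1.81.

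Replicates of the condition in which a gene was high differed by less than the gap between conditions. The count limits that chose the genes required such a gap in every one of them. Setting the replicates beside it is therefore a description and no test of a switch. For the on genes, the higher knockout library was from 1.03 to 1.34 times the lower one (median 1.17), and the gap from the highest control to the lowest knockout was from 4.88 to 305 times (median 14.4). For the off genes the corresponding values were 1.06 to 1.27 (median 1.22) and 5.90 to 37.9 (median 9.01). The on genes together took 4.84 and 3.78 CPM in the sgNeg libraries and 75.6 and 80.1 CPM in the sgNPM1A libraries. The off genes together took 24.3 and 26.8 CPM with sgNeg and 2.55 and 1.44 CPM with sgNPM1A. None of the 21 genes was at 0 in any library.

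Few of the near-silent genes shifted so far. With at most 15 reads in both sgNeg libraries there were 43498 genes, 15114 of them with a read in any library. Of these, 16 had 60 or more reads in both sgNPM1A libraries (the 14 on genes and the 2 left out by name), and 52 had 30 or more. In the reverse direction there were 43254 such genes, 14870 of them with a read in any library, of which 7 had 60 or more and 38 had 30 or more. Of the 31172 genes without a read in both sgNeg libraries, none reached 60 in both sgNPM1A libraries, the highest lower count being 40. For the 30710 genes without a read in both sgNPM1A libraries, the highest lower count with sgNeg was 17.

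**Figure D2:**
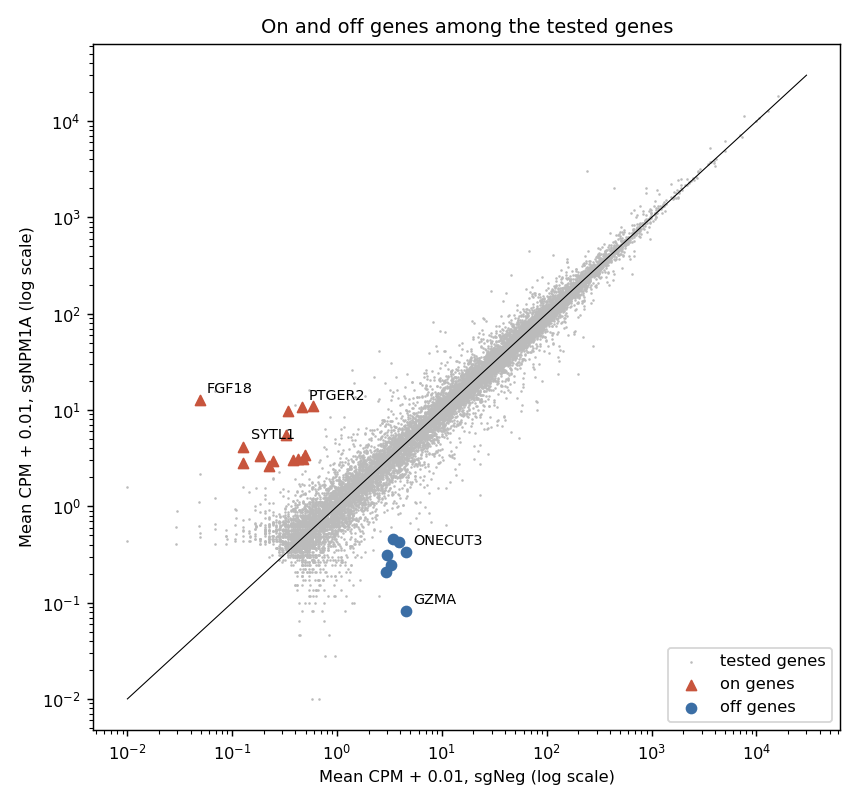
Mean CPM + 0.01 with sgNeg (horizontal) and with sgNPM1A (vertical), both on log axes, for the 15718 genes tested in grey, the 14 on genes as triangles and the 7 off genes as circles; the line marks equal levels. The on and off genes lie at the outer edges of the cloud at low levels, with FGF18 at 0.039 and 12.6 CPM farthest from the line.

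Per kilobase of exon, the levels of the on genes in the knockout were modest. FGF18 was at 6.29 CPM per kb with sgNPM1A, CALB2 at 5.69 and PTGER2 at 4.33. CCNA1 followed at 2.42, the non-coding ENSG00000260188 at 1.91, TSHZ3 at 1.34 and KCNK13 at 1.33, whereas LRRK2, with exons of 17100 bases in all, was at 0.180, the lowest of the group. Between 0% and 4.0% of the 50-base runs in the exons of an on gene also occurred in another gene, with the highest share in SYTL1 and 1.82% in CLEC12A (shared with CLEC1B, which had 0, 0, 3 and 4 reads). For FPR1 and FPR2 the shares were 1.2% and 1.02%. The 13 on genes with a RefSeq position lay on 9 chromosomes, and FPR1 and FPR2 were the only pair of them within 100 kb of each other.

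The off genes were a serine protease of cytotoxic granules, a RAB GTPase, a transcription factor, an endosomal protein and antisense RNAs. GZMA (chr5:55102646-55110252) encodes granzyme A, a protease of T and natural killer cells. It had 104 and 131 reads with sgNeg and 3 and 1 with sgNPM1A (4.57 ± 0.684 to 0.0718 ± 0.0506 CPM). The level with sgNeg was 63.7 times that with sgNPM1A, with a 95% counting interval of 24.5 to 236. The log2 fold change of -5.90 was -6.81 without sgNPM1A replicate 1 and -5.35 without sgNPM1A replicate 2. At 5.11 CPM per kb with sgNeg it was also the off gene with the highest level per length.

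Of the other granzymes and perforin, looked up after these values were seen, none was tested or had more than 11 reads in any library. GZMB had 0 and 0 reads with sgNeg and 4 and 3 with sgNPM1A, GZMH 2, 3, 2 and 2 in the same order, GZMM 11, 4, 3 and 5, and GZMK 0 in every library. The pore-forming protein PRF1 had 0, 2, 0 and 2 reads. Among the lymphocyte markers, the granule membrane protein gene NKG7 had 97, 114, 78 and 92 reads (log2 fold change -0.43, SE 0.18, adjusted p = 0.109, edgeR) and the granulysin gene GNLY 6, 10, 18 and 22 (1.19, SE 0.42, adjusted p = 0.0594), and neither was called. The T-cell receptor complex genes CD3D and CD3E were at 0 in every library.

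RAB27B encodes a RAB GTPase that tethers secretory vesicles and exosomes at the plasma membrane, and lies at chr18:54717857-54895516. It had 102 and 98 reads with sgNeg and 13 and 10 with sgNPM1A (3.90 ± 0.162 to 0.413 ± 0.0751 CPM, log2 fold change -3.22, SE 0.26). The controls agreed within 1.06 times of each other, the closest pair of the off genes. Its paralog RAB27A, looked up after the values were seen, was at 72.2 ± 0.954 and 73.3 ± 0.181 CPM (log2 fold change 0.02, SE 0.07, adjusted p = 0.843, edgeR) and was not called. Of the effectors of RAB27, SYTL1 was on and SYTL3 fell from 32 and 43 reads to 14 and 10 (-1.75, SE 0.34, adjusted p = 3.12e-03, edgeR), while UNC13D, also looked up afterwards, was not called (-0.05, SE 0.07, adjusted p = 0.628).

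ONECUT3, a transcription factor with a cut domain and a homeodomain, had 104 and 129 reads with sgNeg and 12 and 6 with sgNPM1A (4.54 ± 0.629 to 0.323 ± 0.152 CPM, log2 fold change -3.79, SE 0.30). ENTREP2, an endosomal transmembrane protein, had 70 and 82 reads against 13 and 4 (-3.26, SE 0.36). In ENTREP2 the knockout libraries differed from each other more than in any other off gene, and its value was -4.31 without sgNPM1A replicate 1 and -2.65 without sgNPM1A replicate 2. NSMCE3, a gene within ENTREP2 on the same strand, had 1065 and 1093 reads with sgNeg and 988 and 890 with sgNPM1A (-0.32, adjusted p = 0.0172, edgeR), which fell just short of the fold limit for a call.

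The remaining off genes were antisense RNAs. KIF25-AS1 (chr6:167994187-167997077) had 67 and 83 reads with sgNeg and 7 and 4 with sgNPM1A (log2 fold change -3.85, SE 0.34). LHX2-AS1 (chr9:124006277-124009396) had 74 and 93 reads against 9 and 4 (-3.77, SE 0.34). Its value was -4.45 without sgNPM1A replicate 1 and -3.31 without sgNPM1A replicate 2. IL12A-AS1 (chr3:159913400-160207092) had 96 and 77 reads against 14 and 11 (-2.90, SE 0.28). Each is named for a coding gene on the other strand. Long non-coding RNAs were 3 of the 7 off genes and 1 of the 14 on genes, beside 12% of the genes tested, and the groups are too small for a comparison. Whether the counting used strand is not given in the sources used here, so reads of an antisense RNA and of its partner may be mixed where they overlap.

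The partners of the antisense RNAs did not all move alike. KIF25, a kinesin, had 56 and 72 reads with sgNeg and 4 and 2 with sgNPM1A, and missed the off group by its count of 56 (log2 fold change -4.47, SE 0.40, adjusted p = 1.34e-05, edgeR). LHX2, a LIM homeobox transcription factor of stem and progenitor cells, fell from 144 ± 3.89 to 41.2 ± 3.37 CPM (-1.81, SE 0.08, adjusted p = 8.18e-08, edgeR). IL12A, a subunit of interleukin 12, had 30 and 29 reads with sgNeg and 33 and 40 with sgNPM1A and was not called (0.19, SE 0.27, adjusted p = 0.65, edgeR). RefSeq places KIF25 594 bases and LHX2 2372 bases from its antisense RNA, while the exon annotation used for lengths lets them overlap. Of all runs of 50 bases in the exons of KIF25-AS1, 3.44% also occurred in exons of KIF25, and 0% of those of LHX2-AS1 occurred in exons of another gene.

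Genes beside the on and off genes were taken as the nearest tested gene on each side within 100 kb that was not itself on or off. Beside the on genes there were 13 such neighbours. FOSL2, an AP-1 transcription factor gene next to PLB1, was called higher (log2 fold change 0.54, SE 0.07, adjusted p = 2.14e-04, edgeR), as were the mucin gene MUC19 next to LRRK2 (1.64, SE 0.27, adjusted p = 1.01e-03), QSER1 next to PRRG4 (0.36, SE 0.12, adjusted p = 0.0465) and SPART next to CCNA1 (0.35, SE 0.09, adjusted p = 0.0185). These are 4 of 13, beside 10.5% of all genes tested, and 1, the kinase gene MAP3K6 next to SYTL1, was called lower (-0.41, SE 0.10, adjusted p = 0.0119, edgeR), beside 10.3% of all genes tested. All 4 lay more than 20 kb from the on gene, and of the 4 neighbours within 20 kb 0 were called higher. Both the 13 and these 4 include NPM1, the targeted gene, as the neighbour of FGF18. The count of 4 called higher fell to 2 without sgNeg replicate 2 and to 2 without sgNPM1A replicate 2.

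Beside the off genes there were 9 neighbours, of which 4 were called lower and 0 higher, beside 10.3% and 10.5% of all genes tested. They were KIF25 and LHX2, C3orf80, which lies 18330 bases from IL12A-AS1, and APBA2, an adaptor protein gene whose end overlaps that of ENTREP2 on the opposite strand. C3orf80 had 1460 and 1466 reads with sgNeg and 316 and 232 with sgNPM1A (log2 fold change -2.53, SE 0.12, adjusted p = 1.41e-07, edgeR). APBA2 fell from 264 ± 4.75 to 164 ± 6.70 CPM (-0.69, SE 0.07, adjusted p = 1.90e-05, edgeR). All 4 lay within 20 kb of the off gene, where there were 6 neighbours in all, and the other 2 (IL12A and ATP8B3) were not called. NSMCE3, which lies within ENTREP2 and was tested but not called, is not among the neighbours. Only a single gene was kept on each side, and there it was APBA2. Neighbours enter the same fit as the on and off genes and were not chosen by it. In the annotations used, KIF25, LHX2 and APBA2 each overlap an off gene on the opposite strand. KIF25-AS1 shared 3.44% of its exon runs with KIF25, so reads of these genes may be mixed there. For LHX2-AS1 and ENTREP2, 0% of the exon runs occurred in exons of another gene. The annotation used for counting is not given, and mixing of reads was not tested.

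**Figure D3:**
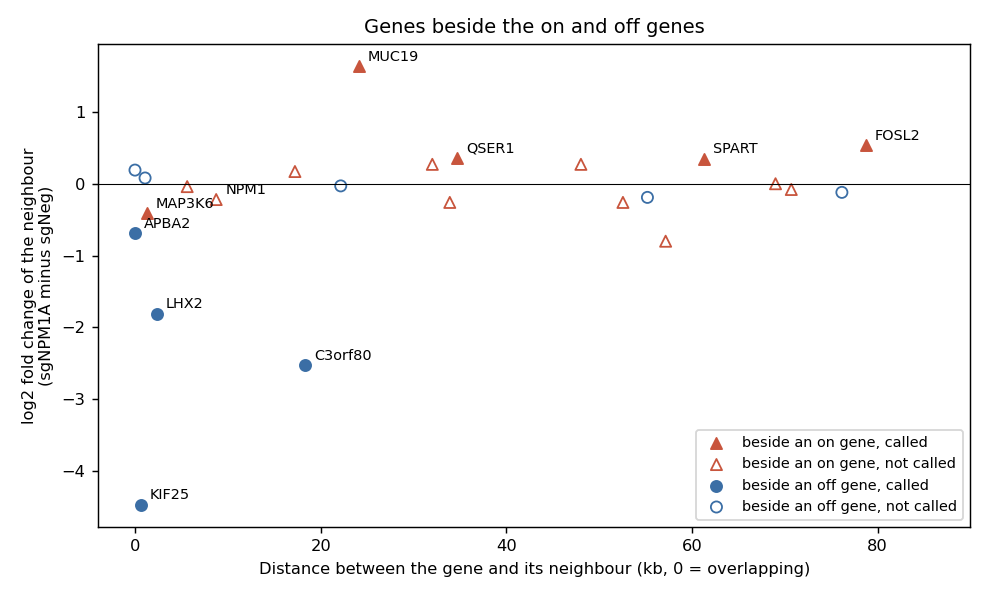
Log2 fold change of the nearest tested neighbours (vertical) against their distance in kb from the on gene (triangles) or off gene (circles), with 0 for overlapping genes and filled symbols for called genes; a neighbour of both FPR1 and FPR2 appears once for each. The 4 called neighbours of off genes fell and lie within 20 kb, from -4.47 for KIF25 to -0.69 for APBA2, and the 4 neighbours called higher beside on genes lie farther out.

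Relatives of the on and off genes, taken as genes whose symbols share the letters before the first digit, were mostly silent. There were 94 of them, of which 23 were tested, 5 were called higher and 5 lower, beside 10.5% and 10.3% of all genes tested. The prostaglandin receptor genes had the clearest shared direction. PTGER4 rose from 7.16 ± 1.28 to 22.5 ± 4.56 CPM (log2 fold change 1.65, SE 0.16, adjusted p = 2.46e-05, edgeR) and PTGER3 from 15.5 ± 2.82 to 21.4 ± 1.02 CPM (0.46, SE 0.12, adjusted p = 0.0179), while PTGER1 had 15, 11, 13 and 4 reads and was not called.

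In several other families the relative fell or was not called. TSHZ1 fell from 40.5 ± 2.96 to 21.0 ± 0.782 CPM (log2 fold change -0.95, SE 0.09, adjusted p = 2.08e-05, edgeR) where TSHZ3 was on. LRRK1 fell from 12.8 ± 0.107 to 10.0 ± 0.841 CPM (-0.35, SE 0.12, adjusted p = 0.0482) and PRRG1 from 10.8 ± 0.280 to 8.32 ± 0.664 CPM (-0.37, SE 0.12, adjusted p = 0.0467). ONECUT2, the relative of the off gene ONECUT3, fell from 87.7 ± 4.05 to 69.4 ± 8.76 CPM (-0.34, SE 0.09, adjusted p = 0.0174). CCNA2, the cyclin A of dividing somatic cells, was at 87.4 ± 10.7 and 93.1 ± 7.63 CPM and was not called (0.09, SE 0.09, adjusted p = 0.520). Among the C-type lectin genes with the CLEC symbol, 7 were tested, and CLEC4G (1.48, SE 0.38, adjusted p = 0.0138) and CLEC10A (0.78, SE 0.23, adjusted p = 0.0280) were called higher.

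**Figure D4:**
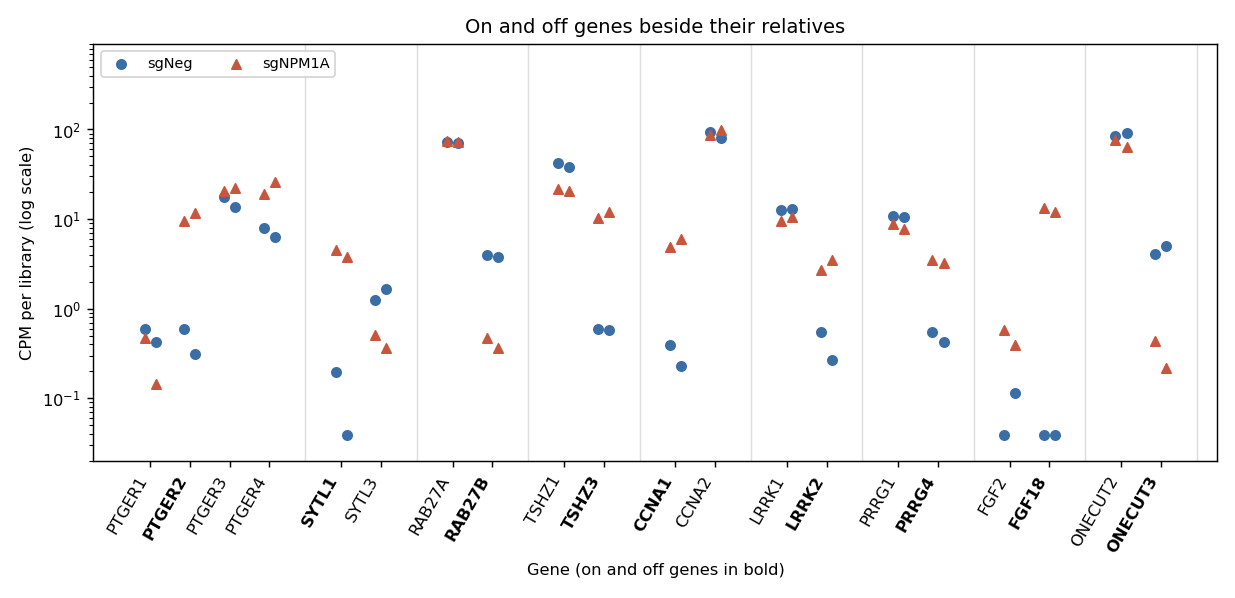
CPM on a log axis in each of the 2 sgNeg libraries (circles) and 2 sgNPM1A libraries (triangles) for on and off genes (bold names) beside relatives of the same family. RAB27A and CCNA2 stayed near the same level in all 4 libraries, while TSHZ1 fell and PTGER4 rose.

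Fibroblast growth factors act through the receptors FGFR1 to FGFR4, and a list of 29 ligands, receptors and co-receptors was followed. Of 8 tested, 2 were called higher and 4 lower, and 1 of the 2 is FGF18 itself, which the rule chose for being higher. The ligand FGF2 rose from 1 and 3 reads to 16 and 11 (log2 fold change 2.57, SE 0.65, adjusted p = 0.0134, edgeR). The ligand FGF22 was not called (0.24, SE 0.45, adjusted p = 0.745). Among the receptors, FGFR3 fell from 5.59 to 1.83 CPM (-1.61, SE 0.19, adjusted p = 1.10e-04), FGFRL1 from 49.3 to 35.6 CPM (-0.47, SE 0.10, adjusted p = 5.52e-03), FGFR1 from 20.3 to 15.7 CPM (-0.37, SE 0.10, adjusted p = 0.0204) and FGFR4 from 12.2 to 9.34 CPM (-0.39, SE 0.13, adjusted p = 0.0426). By DESeq2, the tool of the study, 1 of the 8 was called higher and 2 lower. Of the calbindin family, CALB1 had 4, 2, 4 and 7 reads and SCGN 0, so CALB2 was the only member tested.

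Marker lists give the setting in which FPR1, FPR2 and CLEC12A were on. Of 16 monocyte and macrophage markers tested, 10 were called higher and 4 lower, and their summed level went from between 828 and 857 CPM to between 3610 and 4480 CPM. Lysozyme (LYZ) rose most, from 243 to 3010 CPM (log2 fold change 3.63, SE 0.13, adjusted p = 3.94e-08, edgeR), and the calgranulin S100A9 rose as well (2.72, SE 0.10, adjusted p = 3.94e-08), whereas the scavenger receptor CD163 fell (-3.00, SE 0.12, adjusted p = 4.51e-08). Of 10 granulocyte markers tested, 8 were called higher, among them proteinase 3 (PRTN3, 2.21, SE 0.07, adjusted p = 2.58e-08), and 2 lower, and the sum went from between 3470 and 3510 CPM to between 6340 and 6370 CPM. CEACAM8, CEACAM6, FCGR3B and CXCR1 were at 0 in every library. The part of such a change in the on genes was not tested.

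The lists for other cells each had from 2 to 5 genes tested. Stem and progenitor markers had 3 tested, with 2 called higher and 1 lower. FLT3 rose from 9.98 to 20.5 CPM (log2 fold change 1.04, SE 0.11, adjusted p = 5.73e-05, edgeR) and GATA2 from 1.97 to 4.37 CPM (1.15, SE 0.19, adjusted p = 1.04e-03). MEIS1 fell from 37.6 to 6.84 CPM (-2.46, SE 0.16, adjusted p = 1.13e-06). The sum of the list went from between 48.8 and 51.0 to between 30.6 and 33.0 CPM. Of the lymphocyte markers, which bear on GZMA, 5 of 15 were tested, edgeR and DESeq2 each called 0, and 3 had an unadjusted p under 0.05, while MS4A1, KLRD1, CD3D and CD3E were at 0 in every library. Their sum, mostly CD4 and NCAM1, was 381 to 393 CPM with sgNeg and 404 to 416 CPM with sgNPM1A. Of the erythroid markers 3 were tested, with 2 called higher and 1 lower, of the megakaryocyte markers 4, with 1 higher, of the mast cell, basophil and eosinophil markers 3, with 1 higher, and of the dendritic cell markers 2, with 1 higher and 1 lower. DESeq2 called 1 higher and 1 lower of the erythroid markers, 0 of the megakaryocyte and of the mast cell, basophil and eosinophil markers, and 0 higher and 1 lower of the dendritic cell markers. In edgeR the unadjusted p was under 0.05 for 2 megakaryocyte markers, for 1 mast cell, basophil or eosinophil marker and for 2 dendritic cell markers. The erythroid sum was 58 to 58.1 CPM with sgNeg and 53.2 to 57.7 CPM with sgNPM1A, mostly EPOR and TFR2, and the mast cell, basophil and eosinophil sum 275 to 284 and 293 to 300 CPM, mostly RNASE2. Of the fibroblast, endothelial and epithelial markers 4 were tested and 3 called lower by edgeR (2 by DESeq2), and the sum went from between 31.2 and 33.8 to between 11.0 and 14.9 CPM. Most of it was the collagen gene COL1A2, which fell from 28.0 ± 0.787 to 11.1 ± 2.56 CPM (-1.33, SE 0.13, adjusted p = 3.11e-05, edgeR), while EPCAM, CDH5 and KDR were at 0 in every library. Of the mARC (amidoxime-reducing) enzymes and their cytochrome b5 partners 4 were tested, and MTARC1 (4.91, SE 0.21, adjusted p = 7.32e-08) and MTARC2 (1.43, SE 0.36, adjusted p = 0.0134) were called higher by edgeR, and 1 of the 4 by DESeq2.

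Genes just outside the limits were much like those just inside. On the low side of the on genes, TSHZ3, PTGER2 and PRRG4 lay just inside with highest control counts of 15, 15 and 14. MTARC1, a molybdenum enzyme of the outer mitochondrial membrane, lay just outside with 17, 10, 426 and 464 reads (the sgNeg libraries first), as did the chemokine-like PROK2 with 16, 18, 71 and 89 and the lectin gene SIGLEC16 with 15, 20, 78 and 91. On the high side FPR1, FPR2 and PLB1 lay just inside. S100A12, a calgranulin, with 10, 13, 58 and 62 reads, the receptor ROR2 with 2, 0, 56 and 64, and ENSG00000273314 with 6, 8, 55 and 70 lay just outside.

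For the off genes, IL12A-AS1, RAB27B and ENTREP2 lay just inside the limit of 15. LINC03048 with 85, 81, 14 and 19 reads, LINC01929 with 274, 290, 21 and 14, and the antigen-presenting molecule CD1C with 130, 173, 23 and 9 lay just outside it. Just inside the limit of 60 lay KIF25-AS1, ENTREP2 and LHX2-AS1, and just outside it KIF25, the Notch ligand DNER with 52, 60, 10 and 9 reads, and GABBR2, a GABA receptor subunit, with 47, 46, 12 and 13. The highest count of any off gene was 131, in GZMA, against 367 for FGF18 among the on genes.

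The limits were set on raw counts, and the knockout libraries were somewhat deeper. With counts scaled to the mean library size before the limits were applied, 12 of the 14 on genes were kept and 2 were lost (PTGER2 and TSHZ3, each with 15 reads in a control library), and all 7 off genes were kept. The number of off genes was 13 without sgNPM1A replicate 1, which added CD1A, CD1C, NPY1R, LINC01929, IGLV3-9 and ENSG00000266088, and from 7 to 9 without each of the other libraries. The number of on genes was from 14 to 19 when each library was left out in turn. Leaving out a library only loosens the rule, so all 14 on and all 7 off genes stay in by construction. Their staying in is therefore no check of them.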

How the data were processed

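Gene counts of 4 RNA-Seq libraries of OCI-AML3 cells, 2 per condition, were analysed. Reads were mapped by the authors with STAR to hg38, and the deposited values are raw read counts per Ensembl gene in a single table. The counting program, its strand setting and the annotation release are not given in the sources used here. ERCC spike-ins are named in the study's methods, while 0 of the gene identifiers are ERCC names. The table has 0 columns of other samples. The labels give alpha-MEM as medium and the study RPMI.

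The 2 limits (15 and 60 reads) were applied to the counts as deposited. The genes, lists and tests were chosen with earlier results of these data known. Of 58037 genes, 28384 had no read in any library. edgeR 4.0.16 in R 4.3.3 (limma 3.58.1) was run with filterByExpr by group at its minimum count of 10, TMM normalization, robust dispersions and its two-sided quasi-likelihood test on 15718 genes. Calls required a p under 0.05 after Benjamini-Hochberg adjustment over these genes and a log2 fold change of at least 0.32 in size, after the fold limit in the study's methods. Count ratios have exact binomial 95% intervals. The method was tested on simulated data in which all genes had a common dispersion. That setting differs from these data, and nothing is concluded from it for the on and off genes.

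Every on and off gene was named, with the 3 genes nearest inside and outside each limit and, of neighbours, families (at most 40 genes) and lists, up to 4 called genes by smallest adjusted p. Other names were chosen after their values were seen and serve to show a partner, a paralog or a marker at 0. Gene types and exon lengths are from GENCODE on GRCh37, positions from RefSeq on GRCh38.p14 by symbol (14206 of the 15718 tested genes matched). Promoters in the RefSeq table matched 12 of 14 on and 6 of 7 off genes. Its start can differ from the outermost start of the gene. The windows of CLEC12A, CCNA1, TSHZ3 and ENTREP2 lie inside the gene, farthest for ENTREP2, and that of PRRG4 lies partly inside. DESeq2 1.42.0, limma-trend after quantile normalization, other size factors, no filter, other limits and windows, the replicate number as a block, and leaving out each library were tried as alternatives. Replicates differed beyond sampling noise (chi-square per degree of freedom 8.26 for sgNeg and 3.83 for sgNPM1A). Precision is set by depth, where 3 reads correspond to 0.108 to 0.118 CPM.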

Additional observations from a re-analysis of the deposited data

How the results depend on the processing

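The number of genes depended on the limits. With limits of 10 and 60 there were 8 on and 3 off genes, with 15 and 100 there were 6 and 2, and with 20 and 50 there were 25 and 12. Of protein-coding genes alone, 4 were off. Leaving out each library in turn gave 14 to 19 on and 7 to 13 off genes, 14 to 14 on genes called higher and 7 to 7 off genes called lower, 1224 to 1574 called higher and 1166 to 1571 called lower over all genes, and 2 to 4 neighbours of on genes and 4 to 4 of off genes called in the same direction. A lone library is then assumed to vary like the other condition. The numbers of on and off genes cannot fall when a library is left out, as fewer libraries then have to meet the limits. Over all genes, where 1653 were called higher and 1619 lower, a fold of at least 2 left 498 and 502, library size alone gave 1433 and 1947, and DESeq2 gave 1190 and 1142. For neighbours of on genes, library size alone gave 2, a fold of at least 2 gave 1 and a window of 20 kb gave 0.

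With the replicate number as a block, 1637 genes were called higher and 1604 lower, with 3 neighbours of on and 4 of off genes. The labels share only the numbers. Same-numbered libraries tended to deviate in opposite directions (r = -0.13 over all tested genes, and -0.523 over the 8856 genes above 10 CPM). Differently numbered libraries of the conditions thus shared part of their deviation, and the source of this was not tested. With the crossed pairing, chosen after seeing the data, 1955 were called higher and 1918 lower. Of 168 fold changes of on and off genes recomputed, 10 moved by more than the spread between replicates, 5 of them without sgNPM1A replicate 1, and sizes lay between 2.47 and 8.33 on the log2 scale. The direction is fixed by the choice of the genes.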

Other observations

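The genes that wider limits of 20 and 50 reads would add were 11 on and 5 off genes. Besides those already described, the on side gained the mucin gene MUC19, the sodium, calcium and potassium exchanger SLC24A4, the cartilage protein CILP2, and the non-coding EPHA1-AS1 and ENSG00000260360. The off side gained the glycosyltransferase GALNT12 and the epithelial keratin KRT18, the latter falling from 2.26 to 0.557 CPM (log2 fold change -2.01, SE 0.28, adjusted p = 3.36e-04, edgeR).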
